A study of Mus musculus with 9 samples.

Results

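The genes described here are 32 genes of the oligodendrocyte lineage and of myelin, chosen by name and followed in the brain of 5xFAD mice given human amylin or vehicle. A gene was measured where a probe set of the array named it and no other gene, and where several did, the brightest on average was kept. This gave 31 of the 32 genes, each from 1 probe set, out of 19938 genes tested; Enpp2 was not analysed here. The 31 fall into 6 roles: 2 precursor genes, 2 genes of differentiating cells, 4 lineage transcription factors, 12 myelin sheath proteins, 4 enzymes of myelin lipid and acetate metabolism, and 7 other genes of mature oligodendrocytes.

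Oligodendrocytes arise from dividing precursors that carry the PDGF alpha receptor and the NG2 proteoglycan. Under the control of Olig and Sox transcription factors the cells stop dividing, differentiate and wrap axons in myelin, a compacted membrane rich in galactolipids and held together by a small set of abundant proteins. Myelin is dense in white matter and thinner in grey matter such as the upper layers of cortex, so the level of its transcripts in a piece of brain also varies with the regions that piece holds.

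Total RNA of brain tissue, which the series title places in the cortex, was measured on 9 Affymetrix arrays, 1 per sample, in 3 groups of 3. Wild-type mice (B6SJLF1/J) received PBS; 5xFAD mice received PBS (the vehicle group, labelled APP-PBS) or human amylin (labelled APP-amylin). All were about 5 months old and were injected intraperitoneally every day for 10 weeks, and all came from The Jackson Laboratory. The 5xFAD strain is a transgenic model of amyloid deposition, its transgenes being driven by the neuronal Thy1 promoter. The labels call the replicates biological but do not tie them to litters or cages, no wild-type mice received amylin, and the number of arrays limits the precision. Levels are log2 intensities after RMA, a normalization that gives all arrays nearly the same distribution, and a level is never set against that of another gene, since probes differ in brightness.

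The wild-type and 5xFAD arrays also stood apart in genes that mark brain regions. For scale, 3.66% of all genes tested were called higher and 4.92% lower in vehicle than in wild-type mice. Of 7 striatal markers, 7 were called higher in vehicle than in wild-type mice, and the mean of the list lay between 7.83 and 8.15 on the wild-type arrays, 9.56 and 9.82 on the vehicle arrays, and 9.58 and 9.75 on the amylin arrays. Of 8 thalamic markers, 7 were called lower, with list means of 8.21 to 8.41, 7.32 to 7.54 and 7.11 to 7.72 in the same order of groups. All 6 hippocampal markers were called lower, with list means of 6.91 to 7.03, 5.61 to 5.79 and 5.63 to 5.82. Olfactory bulb markers ranged from 6.08 to 6.52, 6.29 to 8.07 and 6.73 to 7.92, so they varied within the 5xFAD groups. Microglial markers were called higher in 8 of 8, with list means of 7.08 to 7.14, 7.98 to 8.51 and 7.93 to 8.22. Between amylin and vehicle, 0 genes of any of the marker lists were called, where 1 of 19938 genes was called at all. Means lay below vehicle in 8 of 8 microglial and 9 of 10 endothelial and pericyte markers, against 49.6% of all genes. They lay above it in 8 of 9 neuronal and 6 of 6 olfactory bulb markers. In each other list, means lay on both sides. In tissue RNA, fewer oligodendrocytes and less RNA per oligodendrocyte cannot be told apart.

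Single arrays stood apart in the oligodendrocyte genes too. The first wild-type array held the highest of the 9 values for 19 of the 31 genes, against 16.3% of all genes, and the first amylin array held the lowest for 16, against 11.0% of all genes. Where leaving out either ended the call of a member, this is said beside that call.

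**Figure D1:**
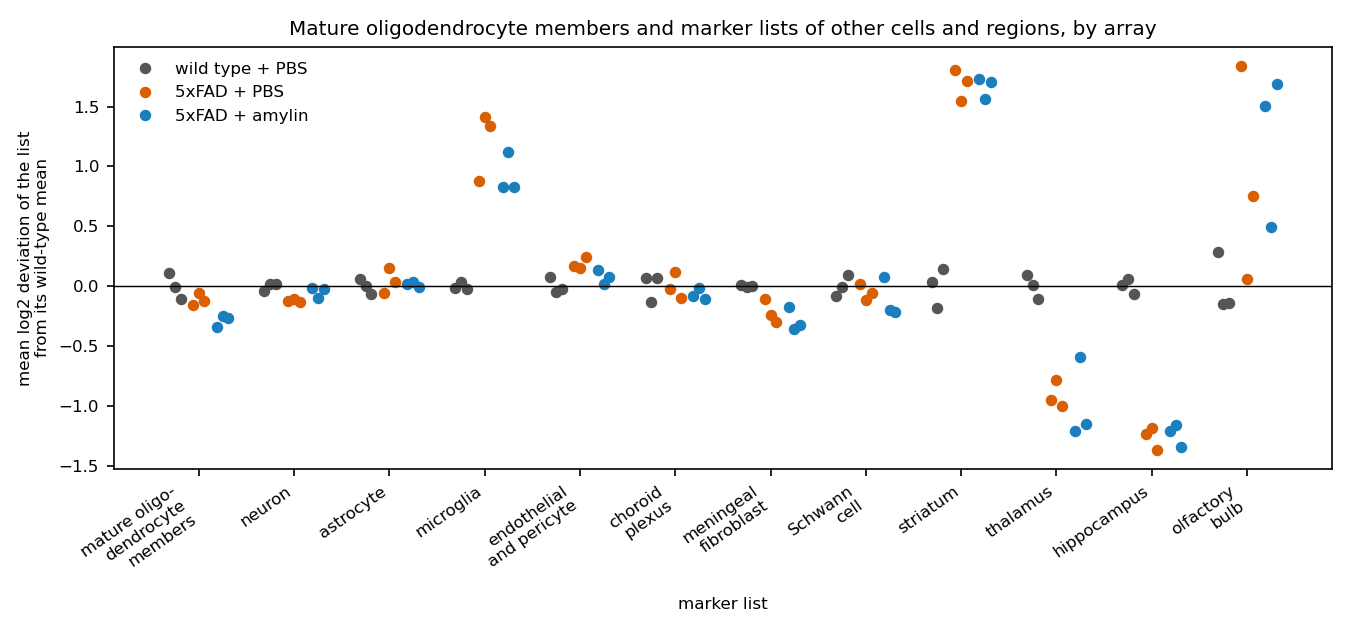
Mean log2 deviation from the wild-type mean of the mature oligodendrocyte genes and of marker lists for other cells and regions; each point is an array, coloured by group, and no lines or error bars are drawn. The striatal list is higher and the thalamic and hippocampal lists are lower on all 6 5xFAD arrays than on the 3 wild-type arrays.

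The first comparison, vehicle 5xFAD against wild-type mice, sets the genotypes side by side under PBS, in tissue whose regional markers differed too. Gpr37, Olig1, Olig2, Mobp and Fa2h fell and 0 measured members rose. The decreases ran from 1.19-fold to 1.38-fold. These are 5 of 31 (16.1%), while 4.92% of all genes tested were called lower, 3.66% higher and 8.58% in either direction. At an unadjusted p under 0.05, 9 members were lower (29.0%, against 12.1% of all genes) and 0 were higher (against 9.11%). The median difference of the 31 genes was -0.11 log2, against -0.0099 for all genes, and 22 of 31 means (71.0%) lay below the wild-type mean, against 54.1% of all genes. In 11 of the 31 (35.5%) all 3 vehicle arrays lay below all 3 wild-type arrays, against 15.6% of all genes; without wild-type replicate 3 these were 17 (54.8%, against 20.5%). The calls were made with limma at a Benjamini-Hochberg adjusted p under 0.05, and such p-values measure only the spread between these samples. The count of 5 became 2 without any 1 of the 3 wild-type arrays or without vehicle replicate 1, and 3 without vehicle replicate 2, vehicle replicate 3 or amylin replicate 2. The median became -0.047 without wild-type replicate 1 and -0.18 without wild-type replicate 3. The regional and microglial lists moved between the same groups, and their part in this result was not tested.

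The second comparison, amylin against vehicle in 5xFAD mice, addresses what amylin treatment changes in these mice. By limma 0 of the 31 genes were called in either direction, where 1 of 19938 genes (0.00502%) was called at all, and 0 lower; 0 members were called under each of the 20 alternative settings, all of them limma fits. Opalin, a glycoprotein of oligodendrocytes, differed most in size among the members, at -0.77 log2, and did not pass (adjusted p = 0.269). At an unadjusted p under 0.05, 7 members were lower (22.6%, against 3.18% of all genes) and 0 were higher (against 3.72%). Without amylin replicate 1 the 7 became 4 (12.9%, against 5.53% of all genes). In 9 members (29.0%, against 3.81% of all genes) all 3 amylin arrays lay below all 3 vehicle arrays: Enpp6, Mog, Mag, Opalin, Ugt8a, Gal3st1, Fa2h, Aspa and Gpr37. Without amylin replicate 1 they were 9 as well, against 12.2% of all genes, and without amylin replicate 2 they were 15 (48.4%, against 8.20%). With all arrays, in 0 members did they lie wholly above, against 5.49% of all genes. The median difference was -0.12 log2, against 0.0006 for all genes, and 24 of 31 means (77.4%) were below the vehicle mean, against 49.6% of all genes. The median was -0.079 both without vehicle replicate 2 and without amylin replicate 1, and lay between -0.15 and -0.079 over the alternatives. The medians of the marker lists ran from -0.24 (microglia) to 0.325 (olfactory bulb) between the same groups, and their part in this result was not tested.

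The third comparison, amylin-treated 5xFAD against wild-type mice, gave the most calls. Gpr37, Fa2h, Opalin, Mag, Mog, Mbp, Cnp and Olig1 fell, by 1.2-fold to 1.61-fold, and 0 members rose. These 8 are 25.8% of the 31, against 2.86% of all genes called lower, 2.35% higher and 5.21% in either direction. At an unadjusted p under 0.05, 19 members were lower (61.3%, against 10.4% of all genes) and 1 was higher (against 8.73%); without wild-type replicate 1 the 19 became 11 (35.5%, against 7.51%). The median difference was -0.26 log2, against -0.0105 for all genes, and 29 of 31 means (93.5%) lay below wild type, against 54.1%. In 16 members (51.6%, against 12.3% of all genes) the amylin arrays lay wholly below the wild-type arrays; in 1, Apod, they lay wholly above, as in 10.8% of all genes. The count of 8 became 2 without wild-type replicate 1, and 4 without wild-type replicate 2, amylin replicate 1 or amylin replicate 3. This comparison shares its wild-type arrays with the first and its amylin arrays with the second, so the 3 are not independent. The regional and microglial lists differed here as in the first comparison, and their part was not tested.

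**Figure D2:**
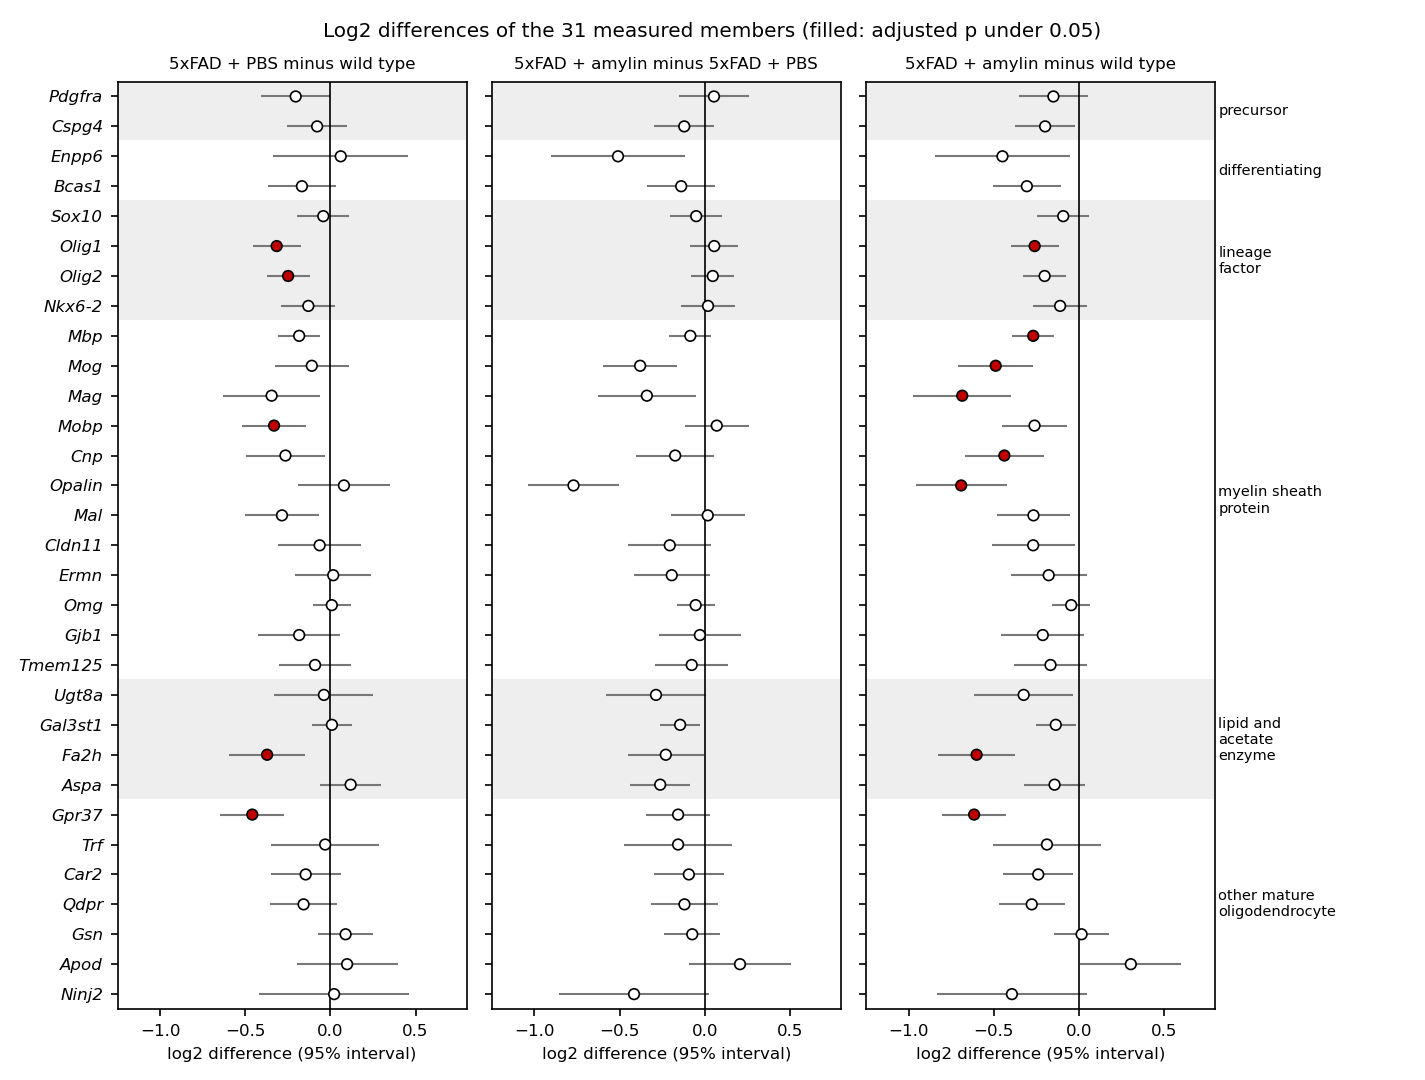
Log2 difference of group means for the 31 genes (points) with 95% intervals (lines), ordered by role, in the 3 comparisons; filled points have an adjusted p under 0.05. Filled points number 5, 0 and 8 from left to right, and all lie below 0.

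RefSeq (GRCm38.p6) gave promoter windows of 300 bases, from 250 before to 50 after a transcript start, for 23 of the 31 genes, 32 windows in all. They were searched on both strands for ACAAAG, a core motif of Sox factors, and CAGCTG, an E-box of the kind that Olig factors bind; these motifs do not overlap. ACAAAG stood in 8 of the 32 windows (25%), of 6 genes, and in 18.7% of all 32851 windows. CAGCTG stood in 6 (18.8%), of 5 genes, and in 16.3% of all windows. The windows of Gpr37, Opalin and Mag are shown because they had the smallest p-values among the members with a window that the rule allowed. All are on the minus strand and are written 5′ to 3′ in gene direction, with a motif on either strand in capitals.
Gpr37 (chr6:25689931-25690230): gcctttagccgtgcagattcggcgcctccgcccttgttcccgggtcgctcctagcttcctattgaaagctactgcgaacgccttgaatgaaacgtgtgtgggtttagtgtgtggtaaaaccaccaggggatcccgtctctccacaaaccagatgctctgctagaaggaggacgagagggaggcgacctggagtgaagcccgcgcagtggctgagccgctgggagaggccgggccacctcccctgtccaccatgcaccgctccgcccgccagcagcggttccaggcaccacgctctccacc
Opalin (chr19:41077064-41077363): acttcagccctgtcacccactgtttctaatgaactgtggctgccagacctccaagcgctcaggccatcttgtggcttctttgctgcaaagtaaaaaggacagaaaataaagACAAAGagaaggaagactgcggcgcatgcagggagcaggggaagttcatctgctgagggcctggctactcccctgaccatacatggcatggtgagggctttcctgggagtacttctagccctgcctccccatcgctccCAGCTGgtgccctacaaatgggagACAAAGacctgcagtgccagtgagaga
Mag (chr7:30914814-30915113, the first of 3 windows): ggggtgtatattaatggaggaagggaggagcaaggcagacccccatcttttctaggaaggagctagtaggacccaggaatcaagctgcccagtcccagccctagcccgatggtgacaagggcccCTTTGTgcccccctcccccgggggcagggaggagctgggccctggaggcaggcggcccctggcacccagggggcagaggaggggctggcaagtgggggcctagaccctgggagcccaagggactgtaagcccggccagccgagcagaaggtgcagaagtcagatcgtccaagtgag
Opalin holds ACAAAG 2 times and CAGCTG 1 time, Mag holds ACAAAG 1 time as its reverse complement, and neither motif is in this window of Gpr37. A match describes the letters only; no binding was measured here.

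No precursor gene was called in any comparison. Pdgfra, the receptor through which PDGF drives precursor division (probe set 10522503), was at 8.55, 8.63 and 8.59 in the wild-type mice, 8.32, 8.48 and 8.37 in the vehicle mice, and 8.59, 8.52 and 8.22 in the amylin mice. The vehicle arrays lay below the wild-type arrays, with a difference of -0.20 ± 0.09 log2 (SE, n = 3 per group, adjusted p = 0.237), while the amylin arrays spanned both groups. Cspg4, the NG2 proteoglycan, was at 6.49, 6.45 and 6.42, then 6.41, 6.39 and 6.33, then 6.12, 6.45 and 6.19. Its groups differed by -0.08 ± 0.08 between vehicle and wild type and by -0.20 ± 0.08 between amylin and wild type (adjusted p = 0.671 and 0.205). Amylin replicate 2 alone among the amylin arrays reached the wild-type range, and without it the latter difference was called at an adjusted p of 0.024, the lowest of a range up to 0.474 over the alternatives.

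Both genes of differentiating cells had their lowest group mean with amylin, with none called, and a wider list of such genes is given below. Enpp6, a choline phosphodiesterase that marks newly forming oligodendrocytes, was at 6.79, 6.61 and 6.47 in wild type, 6.58, 6.88 and 6.59 with vehicle, and 5.79, 6.16 and 6.57 with amylin. All 3 amylin values lay below all 3 vehicle values, but the third was only just below; the difference was -0.51 ± 0.18 (adjusted p = 0.683), and -0.31 without amylin replicate 1 (adjusted p = 0.563; 0.404 to 0.942 over the alternatives). Against wild type it was -0.45 ± 0.18 (adjusted p = 0.198), and -0.25 without that array. Bcas1, a protein of early myelinating cells, was at 8.74, 8.56 and 8.60, then 8.44, 8.46 and 8.49, then 8.12, 8.38 and 8.48. Both 5xFAD groups lay below wild type without overlap, with differences of -0.17 ± 0.09 for vehicle and -0.31 ± 0.09 for amylin (adjusted p = 0.332 and 0.0867).

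Among the lineage factors, Olig1 and Olig2, the basic helix-loop-helix factors that specify the lineage, were lower in both 5xFAD groups and nearly level between them. Olig1 (probe set 10436828) was at 8.69, 8.51 and 8.50 in wild type, 8.21, 8.29 and 8.26 with vehicle, and 8.23, 8.33 and 8.36 with amylin. Each 5xFAD value lay below each wild-type value. The vehicle difference was -0.32 ± 0.06 log2, a 1.25-fold decrease (adjusted p = 0.015), and was called in all 19 alternatives that gave it an adjusted p (0.00755 to 0.0498). The amylin difference from wild type was -0.26 ± 0.06 (1.2-fold, adjusted p = 0.047), a call that leaving out any 1 of the 9 arrays ended (0.0593 to 0.15).

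Olig2 (probe set 10436823) was at 8.03, 7.94 and 7.94 in wild type, 7.63, 7.75 and 7.79 with vehicle, and 7.80, 7.77 and 7.73 with amylin, again without overlap between wild type and either 5xFAD group. The vehicle difference was -0.25 ± 0.06 (1.19-fold, adjusted p = 0.0257), which was lost without any 1 wild-type array or without vehicle replicate 1 or 2 (0.0532 to 0.103). The amylin difference from wild type was -0.20 ± 0.06 (adjusted p = 0.0778). Between amylin and vehicle the 95% interval ran from -0.09 to 0.20 for Olig1 and from -0.08 to 0.17 for Olig2, which bounds the difference without showing that the groups are equal.

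The remaining lineage factors overlapped in every comparison. Sox10, which drives terminal differentiation and activates myelin genes, lay between 7.31 and 7.53 on all 9 arrays, and its largest difference was -0.09 ± 0.07, between amylin and wild type (adjusted p = 0.529). Nkx6-2, a homeobox factor of myelinating cells, lay between 6.90 and 7.27, the highest value being that of wild-type replicate 1. As a role group, the 4 factors deviated from their wild-type means by -0.21, -0.20 and -0.14 on average on the vehicle arrays and by -0.16, -0.17 and -0.17 on the amylin arrays.

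**Figure D3:**
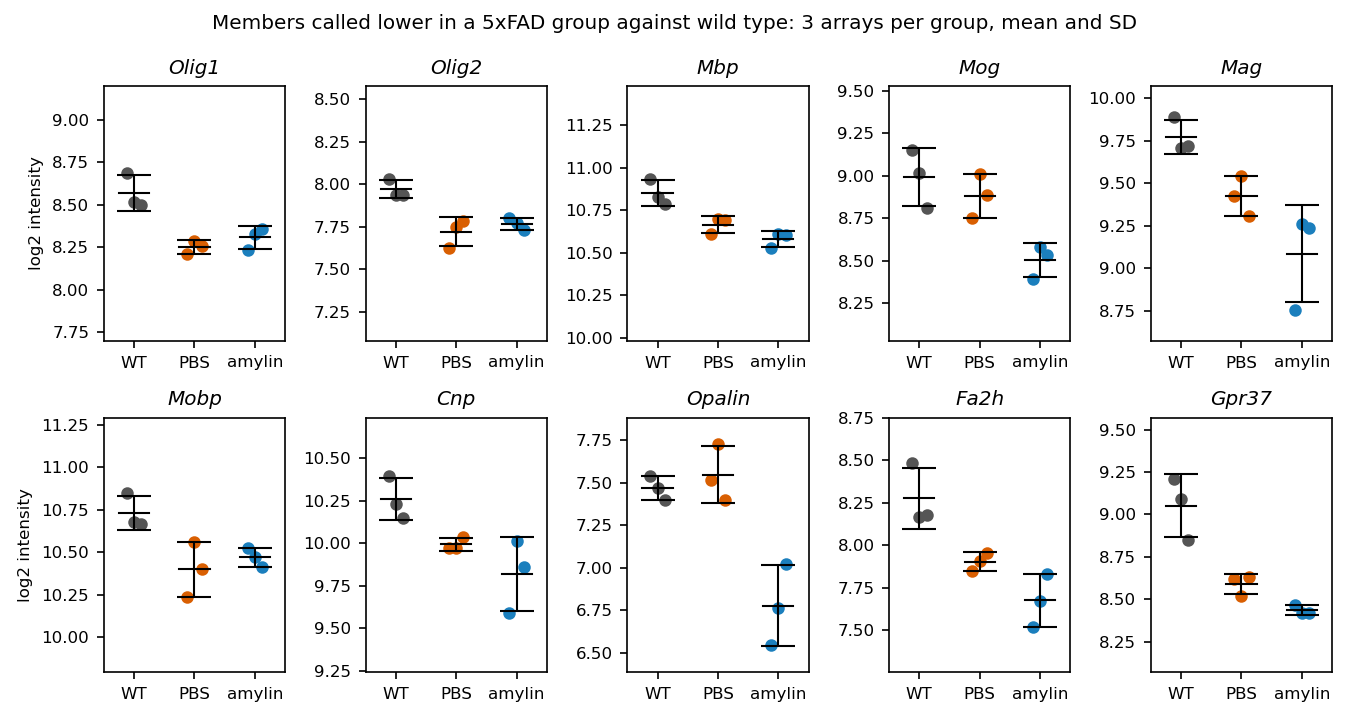
Log2 level on every array (points, with group means as horizontal lines and SD as bars, n = 3) of the 10 genes called in at least 1 comparison; each panel spans the same number of log2 units, starting at a different level. The wild-type points of Olig1, Olig2, Mbp, Mag, Mobp, Cnp, Fa2h and Gpr37 lie above all 5xFAD points. In Opalin and Mog the wild-type and vehicle points overlap, and the amylin points lie below all others.

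The 12 sheath protein genes held 1 call between vehicle and wild type, 0 between amylin and vehicle, and 5 between amylin and wild type, all decreases. The 1 is 8.33% of the 12, against 4.92% of all genes, and the 5 are 41.7%, against 2.86%. Without wild-type replicate 1 the 5 became 0, and without wild-type replicate 2, amylin replicate 1 or amylin replicate 3 they became 2. Opalin, a transmembrane glycoprotein of oligodendrocytes (probe set 10467529), was at 7.54, 7.47 and 7.40 in wild type, 7.52, 7.73 and 7.40 with vehicle, and 6.54, 6.76 and 7.02 with amylin. Wild-type and vehicle arrays overlapped, and each amylin array lay below all of them. The amylin difference from wild type was -0.69 ± 0.12 (1.61-fold, adjusted p = 0.0112), a call lost without wild-type replicate 1 (0.0593) and kept in the 18 other alternatives. Against vehicle the difference was -0.77 ± 0.12 (1.71-fold, 95% interval -1.04 to -0.50), with an adjusted p of 0.269 (0.126 to 0.924 over the alternatives), which did not pass; by p it was the 5th of all genes in that comparison.

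Mag, the adhesion glycoprotein of the innermost, axon-facing wrap (probe set 10562152), was at 9.89, 9.71 and 9.72 in wild type, 9.43, 9.54 and 9.31 with vehicle, and 8.76, 9.26 and 9.24 with amylin. The 3 groups did not overlap, with amylin replicate 1 well below the rest. The amylin difference from wild type was -0.69 ± 0.13 (1.61-fold, adjusted p = 0.0154; 0.0803 without wild-type replicate 1). The vehicle difference from wild type was -0.35 ± 0.13 (adjusted p = 0.149; 0.024 without amylin replicate 1, 0.024 to 0.408 over all alternatives), and the amylin difference from vehicle was -0.34 ± 0.13 (adjusted p = 0.697).

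Mog, a glycoprotein of the outermost lamella, was at 9.15, 9.02 and 8.81 in wild type, 8.75, 9.01 and 8.88 with vehicle, and 8.39, 8.58 and 8.53 with amylin. The first 2 groups overlapped and the amylin group lay below both. Its difference from wild type was -0.49 ± 0.10 (1.40-fold, adjusted p = 0.0205), and from vehicle -0.38 ± 0.10 (adjusted p = 0.582). Mbp, the basic protein that joins the cytoplasmic faces of the membrane, was at 10.93, 10.83 and 10.79, then 10.61, 10.70 and 10.69, then 10.53, 10.61 and 10.61. Both 5xFAD groups lay below wild type; only the amylin difference passed, at -0.27 ± 0.06 (1.2-fold, adjusted p = 0.0234), while the vehicle difference was -0.18 ± 0.06 (adjusted p = 0.078). The Mog and Mbp calls were each lost without wild-type replicate 1 or 2 or amylin replicate 1 or 3, with adjusted p-values of 0.0607 to 0.0877 for Mog and 0.0576 to 0.0953 for Mbp.

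Cnp, the cyclic nucleotide phosphodiesterase of non-compact myelin, was at 10.39, 10.23 and 10.15 in wild type, 9.97, 9.97 and 10.04 with vehicle, and 9.59, 10.02 and 9.86 with amylin. Every 5xFAD value lay below every wild-type value; the amylin difference of -0.44 ± 0.10 passed (1.35-fold, adjusted p = 0.0407) but was lost without any 1 array other than amylin replicate 2 (0.058 to 0.164). Mobp, a basic protein of compact myelin, was at 10.85, 10.68 and 10.67 in wild type, 10.24, 10.56 and 10.40 with vehicle, and 10.53, 10.47 and 10.42 with amylin. Its vehicle difference was -0.33 ± 0.08 (1.26-fold, adjusted p = 0.0411), lost without any 1 array other than vehicle replicate 2 (0.0502 to 0.158). Its amylin difference from wild type was -0.26 ± 0.08 (adjusted p = 0.12). The 5xFAD groups overlapped and differed by 0.07 ± 0.08 (adjusted p = 0.884), or -0.0098 without vehicle replicate 1.

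The other 6 sheath genes passed in no comparison. Mal, a proteolipid of membrane sorting, differed from wild type by -0.28 ± 0.10 with vehicle and -0.27 ± 0.10 with amylin (adjusted p = 0.115 and 0.162). Cldn11, the claudin of myelin tight junctions, and Ermn, an actin-binding protein of the sheath, had differences of -0.06 and 0.02 between vehicle and wild type and of -0.20 and -0.19 between amylin and vehicle. Gjb1, a connexin of myelin gap junctions, differed by -0.21 ± 0.11 between amylin and wild type, and Tmem125 by -0.17 ± 0.10. Omg, a surface glycoprotein that neurons make too, lay between 9.44 and 9.59 on all 9 arrays and its largest difference was -0.05 ± 0.05, between amylin and vehicle (adjusted p = 0.851).

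**Figure D4:**
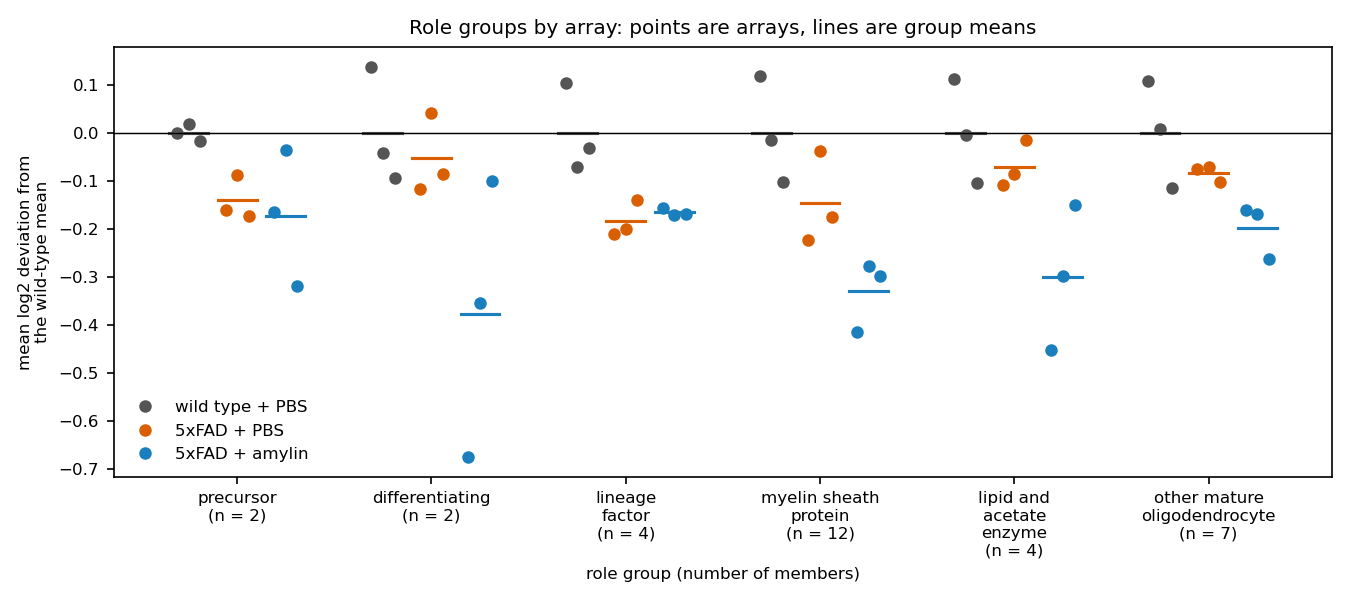
Mean deviation of each role group from its wild-type mean on each array (points) with group means (lines), in log2 units. Lineage factors lie at similar depths in both 5xFAD groups, from -0.21 to -0.14 with vehicle and -0.17 to -0.16 with amylin, while sheath protein genes lie from -0.22 to -0.04 with vehicle and from -0.41 to -0.28 with amylin. The sheath means include Opalin, which had the largest sheath difference between amylin and vehicle (-0.77).

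No test set the roles against each other. Precursor genes deviated from wild type by -0.16, -0.089 and -0.17 on the vehicle arrays and -0.17, -0.037 and -0.32 on the amylin arrays, which overlapped. Genes of differentiating cells overlapped as well, at -0.12, 0.041 and -0.085, then -0.68, -0.35 and -0.10. Sheath protein genes deviated from wild type by -0.22, -0.04 and -0.18 on the vehicle arrays and -0.41, -0.28 and -0.30 on the amylin arrays. This mean did not overlap, but Opalin, at -0.77 between amylin and vehicle, weighs on it. The 12 differences had a mean of -0.18 and a median of -0.13, and 2 were above 0. Lipid and acetate enzymes were at -0.11, -0.087 and -0.016, then -0.45, -0.30 and -0.15, and the other mature genes at -0.077, -0.071 and -0.10, then -0.16, -0.17 and -0.26, both without overlap. By gene, the amylin arrays lay wholly below the vehicle arrays in 3 of 12 sheath genes, 4 of 4 enzymes and 1 of 7 other mature genes, against 3.81% of all genes. The wild-type arrays themselves ranged from -0.10 to 0.12 for sheath genes, the highest being replicate 1.

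Among the enzymes, Fa2h, which hydroxylates the fatty acids of myelin galactolipids (probe set 10581824), was at 8.48, 8.16 and 8.18 in wild type, 7.85, 7.91 and 7.95 with vehicle, and 7.52, 7.67 and 7.83 with amylin. The groups did not overlap in any pair. The amylin difference from wild type was -0.60 ± 0.10 (1.52-fold, adjusted p = 0.00942) and was called in all 19 alternatives (0.00482 to 0.0373). The vehicle difference was -0.37 ± 0.10 (1.29-fold, adjusted p = 0.0499), at the edge of the threshold, and was lost without any 1 wild-type array, any 1 vehicle array or amylin replicate 2 (0.0654 to 0.157). Between amylin and vehicle it was -0.23 ± 0.10 (adjusted p = 0.719).

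Aspa, which frees acetate from N-acetylaspartate for lipid synthesis, was at 7.83, 7.79 and 7.61 in wild type, 7.85, 7.87 and 7.87 with vehicle, and 7.53, 7.51 and 7.77 with amylin. It was the 1 member whose vehicle arrays all lay above the wild-type arrays (11.2% of all genes did), by 0.12 ± 0.08 (adjusted p = 0.469), and its amylin arrays all lay below the vehicle arrays, with a difference of -0.26 ± 0.08 (adjusted p = 0.664). Ugt8a, the galactosyltransferase that makes galactocerebroside, and Gal3st1, which sulfates it to sulfatide, differed between vehicle and wild type by -0.04 ± 0.13 and 0.01 ± 0.05. Against vehicle, amylin arrays were wholly lower for both, with differences of -0.29 ± 0.13 and -0.14 ± 0.05, and neither passed (adjusted p = 0.721 and 0.687).

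Of the 7 other genes of mature oligodendrocytes, Gpr37 alone was called. Gpr37, an orphan G protein-coupled receptor of these cells (probe set 10543466), was at 9.21, 9.09 and 8.85 in wild type, 8.62, 8.52 and 8.63 with vehicle, and 8.47, 8.42 and 8.42 with amylin. Each group lay wholly below the one before. The vehicle difference from wild type was -0.46 ± 0.08 (1.38-fold, adjusted p = 0.00985) and the amylin difference -0.62 ± 0.08 (1.53-fold, adjusted p = 0.00373). Both were called in all 19 alternatives, at 0.00339 to 0.0414 and 0.0017 to 0.0215. Amylin and vehicle differed by -0.16 ± 0.08 (adjusted p = 0.765).

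Apod, a lipocalin that binds small lipids and is also made by perivascular and meningeal cells, was at 10.64, 10.64 and 10.65 in wild type, 10.79, 10.81 and 10.62 with vehicle, and 11.31, 10.69 and 10.85 with amylin. Amylin replicate 1 held its highest value. The amylin difference from wild type was 0.31 ± 0.13 (adjusted p = 0.247), and 0.13 without that array (adjusted p = 0.354; 0.0893 to 0.476 over the alternatives). Ninj2, an adhesion protein, was at 6.46, 5.92 and 6.37 with vehicle and 6.04, 6.11 and 5.35 with amylin, and the groups differed by -0.41 ± 0.20 (adjusted p = 0.735), or by -0.17 without amylin replicate 3 (adjusted p = 0.809; 0.55 to 0.924 over the alternatives). Trf, the iron carrier transferrin, ranged from 10.47 to 11.13 over the 5xFAD arrays and overlapped in every comparison. Car2, a carbonic anhydrase, and Qdpr, which regenerates tetrahydrobiopterin, differed from wild type by -0.24 ± 0.09 and -0.28 ± 0.09 with amylin (adjusted p = 0.187 and 0.11), and Gsn, the actin-severing gelsolin, by 0.02 ± 0.07.

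A wider list of 44 mature oligodendrocyte genes, none of them among the 32, had 42 measured. Between vehicle and wild type 4 fell (9.52%, against 4.92% of all genes) and 0 rose: Efhd1, a mitochondrial calcium-binding protein, at -0.39 ± 0.08 log2 (adjusted p = 0.0129), Lgi3, a secreted leucine-rich repeat protein, at -0.45 (0.0131), Tmem88b at -0.38 (0.025) and S1pr5, a sphingosine phosphate receptor, at -0.38 (0.0314). The list median was -0.11, against -0.0099 for all genes, and without wild-type replicate 1 the count of 4 became 0; it was 2 without vehicle replicate 2 or with all probe sets tested, and 7 with the dimmer 50% of genes left out. Between amylin and vehicle 0 were called, with a median of -0.057, against 0.0006 for all genes. Pllp, the myelin proteolipid plasmolipin, was at -0.39 (adjusted p = 0.495). At an unadjusted limma p under 0.05, 4 of the 42 were lower (9.52%, against 3.18% of all genes) and 0 higher. In 5 (11.9%, against 3.81%) the amylin arrays lay wholly below the vehicle arrays, and 35 means (83.3%, against 49.6%) lay below vehicle. Between amylin and wild type 8 fell (19.0%, against 2.86% of all genes) and 0 rose, with a median of -0.20, against -0.0105. The 6 with the smallest p were Lgi3 at -0.55 (adjusted p = 0.00755), Pllp at -0.53 (0.00757), Efhd1 at -0.42 (0.0131), Tmem88b at -0.40 (0.029), S1pr5 at -0.41 (0.0307) and Cntn2, the axonal and glial contactin of the juxtaparanode, at -0.39 (0.0322). That count was 2 without wild-type replicate 1, 4 without wild-type replicate 2 or amylin replicate 3, and 5 without vehicle replicate 3 or amylin replicate 1. It was 3 with only those groups fitted, 3 with all probe sets tested and 12 with the dimmer 50% of genes left out. Lgi3 and Pllp kept their amylin calls in all 19 alternatives.

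Of 20 further precursor genes, 19 were measured, and vehicle mice differed from wild type in 4: Rlbp1 and Tmem100 rose, by 0.52 (adjusted p = 0.00215) and 0.24 (0.0398), and Xylt1, a proteoglycan xylosyltransferase, and Tnr, the matrix protein tenascin-R, fell, at -0.22 (0.0227) and -0.26 (0.0414). Of these 4, only the Rlbp1 call, of a retinoid-binding protein, was kept in all 19 alternatives: Tmem100, Tnr and Xylt1 lost theirs in 9, 11 and 4. The 2 that rose and the 2 that fell are each 10.5% of the 19, against 3.66% of all genes called higher and 4.92% lower. The median of the list was -0.034, against -0.0099 for all genes, and 0 were called in the comparisons with amylin. At an unadjusted limma p under 0.05, 7 of the 19 were lower with amylin than in wild type (36.8%, against 10.4% of all genes) and 2 were higher. In 5 (26.3%, against 12.3%) those amylin arrays lay wholly below the wild-type arrays. Against vehicle, 2 were lower with amylin by that p (10.5%, against 3.18%) and 0 higher. Of 13 further genes of differentiating cells, 1 was called between vehicle and wild type (7.69%, against 4.92% of all genes called lower). This was Mycl, at -0.35 (adjusted p = 0.0164), lost without wild-type replicate 2 or 3 or vehicle replicate 2 (0.0533 to 0.0642). At an unadjusted limma p under 0.05, 5 were lower (38.5%, against 12.1% of all genes). In 7 (53.8%, against 15.6%) the vehicle arrays lay wholly below the wild-type arrays. The list median was -0.087, against -0.0099 for all genes, and 0 were called in the comparisons with amylin. From vehicle to amylin the list median was -0.014, against 0.0006 for all genes, with 7 means below vehicle and 6 above. At an unadjusted limma p under 0.05, 0 of the 13 were lower there. From wild type to amylin 4 were lower by that measure (30.8%, against 10.4% of all genes).

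Genes reported in disease-associated oligodendrocytes, of which 7 of 10 were measured, held 4 that rose: C4b, a complement component, by 1.48 (adjusted p = 0.000265), B2m, the light chain of class I molecules, by 0.98 (0.00259), Cd63, a tetraspanin of endosomes, by 0.61 (0.00761) and Serpina3n, a protease inhibitor, by 1.22 (0.0195) between vehicle and wild type. These 4 are 57.1% of the 7, against 3.66% of all genes called higher. In the opposite direction, 2 of the 7 means lay below wild type, the lowest at -0.42. At an unadjusted limma p under 0.05, 1 of the 7 was lower, against 12.1% of all genes. The Serpina3n call was lost without any 1 wild-type array (0.0519 to 0.0777). Between amylin and wild type C4b and B2m rose, by 1.10 (adjusted p = 0.00185) and 0.94 (0.00485). These 2 are 28.6% of the 7, against 2.35% of all genes called higher. Between amylin and vehicle 0 were called, and 6 of the 7 means lay below vehicle. The 1 mean above it differed by 0.71, at an unadjusted limma p under 0.05. Astrocytes and microglia make these genes too, the 8 microglial markers rose with them, and RNA of whole tissue does not say which cells carried them.

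Markers of other cells were compared between vehicle and wild type, where 4.92% of all genes were called lower and 3.66% higher. Neuronal markers had 2 of 9 called lower (22.2%, against 16.1% of the 31 oligodendrocyte genes). In 4 of the 9 (44.4%) all 3 vehicle arrays lay below all 3 wild-type arrays, against 35.5% of the 31 and 15.6% of all genes. In 7 of the 9 (77.8%) the mean lay below wild type, against 71.0% of the 31. The neuronal list means were 11.02 to 11.08 in wild type, 10.93 to 10.96 with vehicle and 10.96 to 11.05 with amylin. Astrocyte markers had 1 of 8 called lower (12.5%), and endothelial and pericyte markers 1 of 10 higher (10%). Choroid plexus markers had 1 higher and 1 lower of 8 (12.5% each), and meningeal markers 1 of 7 lower (14.3%). The meningeal list means were 6.88 to 6.90 in wild type, 6.60 to 6.79 with vehicle and 6.54 to 6.71 with amylin. Schwann cells, the myelinating cells of peripheral nerve, had 0 of 4 measured markers called and list means of 5.79 to 6.10 on all arrays. Their part in the oligodendrocyte results was not tested.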

How the data were processed

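The deposited values are log2 intensities of 35556 probe sets on each of 9 arrays; the submitters' processing notes name RMA and oligo as the tools, with no versions. RMA corrects background, equalises quantiles and summarises probes, so small shifts shared by most genes cannot be seen. They were used unchanged (array medians 5.71 to 5.79). Of the probe sets, 21789 name 1 gene, 1621 several and 12146 none; 21698 matched RefSeq genes by Entrez ID, with 0 symbols changed. The probe set with the highest mean stood for each of 999 genes with more than 1, leaving 19938 genes, with no filter on signal.

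Groups were compared with limma 3.58.1 (R 4.3.3) in 1 fit of 9 arrays with a mean per group and moderated variances, with no intensity trend in the prior (residual degrees of freedom 6, prior 3.53). Genes were called at an adjusted p under 0.05 (Benjamini-Hochberg over all genes). The median SE of a difference was 0.07 log2. The fit was tested on simulated data. Figures were drawn with matplotlib 3.10.9 in Python 3.11.15.

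The members and lists were chosen with earlier results of these data known, so list medians carry no p. Every measured member could be named; from the further lists, called genes were, at most 6 per list and comparison. Alternatives numbered 20, 9 of them leaving out 1 array. Those for the further genes were added after seeing the data. Sex-linked genes were checked and 0 of 4 were called. Genome coordinates are of GRCm38.p6 from RefSeq; no source used here names the build behind the array's annotation.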

Additional observations from a re-analysis of the deposited data

How the results depend on the processing

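Between amylin and vehicle, 0 members were called under all 20 alternatives, and no called difference of a member or of a named further gene changed sign in any comparison. No alternative moved a median difference of the members by more than 0.0712, the largest SD within a group of the members' median level; the medians ranged from -0.18 to -0.047 for vehicle minus wild type, -0.15 to -0.079 for amylin minus vehicle and -0.29 to -0.19 for amylin minus wild type. The 5 members called lower with vehicle became 2 when all probe sets were tested and 2 to 5 when 1 array was left out. Over all alternatives that count ranged from 2 to 6. The 8 called lower with amylin against wild type became 5 when only those groups were fitted, 3 when all probe sets were tested and 2 to 8 when 1 array was left out. That count ranged from 2 to 10 over all alternatives. Fits without 1 array have fewer samples, and fits of all probe sets adjust over more tests. Cspg4, Gjb1, Gal3st1 and Ninj2 have no value when the dimmer 50% of genes are left out. The signal of the arrays gives no depth in counts.

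Groups share replicate numbers in the labels. With the replicate number as a block, 2 members were called lower with vehicle and 6 with amylin against wild type. Deviations from group means of same-numbered arrays correlated at -0.056 to 0.18, over 0.1 in 4 of 9 pairs. Those of different-numbered arrays correlated at -0.23 to 0.13, over 0.1 in 4 of 18 pairs. The labels do not say that the numbers pair the mice, so the main fit did not pair them. These correlations do not settle whether they were paired.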
